A study of Homo sapiens with 6 samples.

Results

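The genes of glycolysis and of the response to low oxygen were followed in HuCCT1 cells, a human line established from a cancer of the bile ducts (cholangiocarcinoma). The set was a fixed list of 34 genes: 15 enzymes of glycolysis, 16 other targets of the hypoxia-inducible factors (HIF) and 3 subunits of these factors. Every probe annotated to a listed gene was taken, and a probe was used when its signal exceeded that of the negative control probes (detection p under 0.05) on at least 3 of 6 arrays. Of the 34 genes, 33 had probes in the table, 56 in all, and 41 of these passed. They gave 30 tested genes out of 11586, each represented by its brightest passing probe. CA9 was not analysed here. PDK1 and EGLN3 had a single probe each, detected on 0 arrays, and none of the 4 MXI1 probes was detected on more than 2. Of the 30 tested members, 29 were detected on all 6 arrays, so the filter on dim probes did not choose them by their direction. The exception was BNIP3, detected on 3 mock arrays and 1 array labelled WTAP.

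A pair of derivatives of the line was compared, mock cells that carried the empty vector (3 Illumina bead arrays) and cells labelled as overexpressing WTAP (3 arrays). WTAP is a regulatory part of the machinery that places m6A, a methyl mark on adenosine, on messenger RNA. Both were grown in RPMI1640 medium with serum, HEPES buffer and antibiotics, and the labels name no change of oxygen or glucose, so the comparison sets these genes in 2 derivatives side by side under ordinary culture and does not measure a response to hypoxia. The labels do not say whether a line was 1 clone or a pool, nor that arrays 4, 5 and 6 of a group came from separate cultures, so each p-value measures the spread between these arrays, which may be technical. WTAP itself gave no check of the labels: its brightest probe had a log2 fold change of 0.06 ± 0.10 (SE, limma, Benjamini-Hochberg adjusted p = 0.703), a second probe had -0.01, and the direction of every difference rests on the labels. Of 7 cholangiocyte marker genes 6 were tested and 0 had changed by limma (0 at an unadjusted p under 0.05), and of the 19 markers of hepatocytes, fibroblasts, leukocytes and endothelium 5 were tested, again with 0 changed (2 at an unadjusted p under 0.05).

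Glycolysis splits glucose into pyruvate in the cytosol and yields ATP without oxygen. HIF is a pair of proteins, an alpha subunit that prolyl hydroxylases mark for destruction while oxygen is present, and the constant partner ARNT. When oxygen falls the alpha subunit accumulates, binds a short DNA element and raises transcription of most glycolytic enzymes, of the growth factor VEGFA and of genes for pH control and mitophagy. This control acts on HIF protein, which RNA arrays do not read.

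Upstream sequence is shown for 4 members that changed. They are those of the 7 changed members with a sequence in which a core of the HIF-binding element was found. The rule for choosing the set did not use this element, and not every member holds it. The sequences are the 250 bases before the gene's start in the RefSeq annotation of GRCh38.p14, written 5′ to 3′ on the gene's strand, with each ACGTG or GCGTG on either strand in capitals (CACGT and CACGC when read on the other strand, so that the palindrome CACGTG counts at 2 positions). They lie at chr15:63381847-63382096 (CA12, minus strand), chr4:185396591-185396840 (ANKRD37, plus strand), chr2:74833877-74834126 (HK2, plus strand) and chr12:6914330-6914579 (ENO2, plus strand).
CA12: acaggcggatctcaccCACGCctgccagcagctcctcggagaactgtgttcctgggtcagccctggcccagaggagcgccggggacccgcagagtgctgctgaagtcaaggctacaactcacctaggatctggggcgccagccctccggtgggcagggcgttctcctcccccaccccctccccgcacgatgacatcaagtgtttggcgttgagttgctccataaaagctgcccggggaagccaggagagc
ANKRD37: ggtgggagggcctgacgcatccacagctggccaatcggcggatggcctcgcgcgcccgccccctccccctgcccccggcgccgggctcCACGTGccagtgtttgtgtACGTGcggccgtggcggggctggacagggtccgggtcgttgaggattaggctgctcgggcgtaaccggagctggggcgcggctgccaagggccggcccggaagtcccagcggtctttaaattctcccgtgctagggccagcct
HK2: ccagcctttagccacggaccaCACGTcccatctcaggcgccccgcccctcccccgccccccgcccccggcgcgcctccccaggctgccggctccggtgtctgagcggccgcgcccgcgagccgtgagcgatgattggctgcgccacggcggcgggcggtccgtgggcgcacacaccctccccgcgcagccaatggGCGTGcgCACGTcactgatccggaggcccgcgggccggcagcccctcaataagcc
ENO2: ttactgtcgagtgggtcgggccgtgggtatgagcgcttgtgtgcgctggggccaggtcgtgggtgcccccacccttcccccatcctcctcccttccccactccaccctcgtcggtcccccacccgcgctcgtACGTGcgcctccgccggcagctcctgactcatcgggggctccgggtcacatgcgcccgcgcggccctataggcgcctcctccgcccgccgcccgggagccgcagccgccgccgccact
ANKRD37 held the palindrome and a further ACGTG 143 bases before its start, HK2 had a GCGTG 55 bases before its start and an ACGTG on the other strand at 48 and 229 bases, ENO2 had an ACGTG at 118 bases, and CA12 had a GCGTG on the other strand at 234 bases. Promoter sequence was found for 32 of the 34 members (not for VEGFA and BNIP3L). At least 1 core stood in 10 of 15 glycolytic enzymes (66.7%), 11 of 14 other HIF targets (78.6%) and 2 of 3 HIF subunits, against 43.1% of 27305 promoters of all genes and 50.5% of 15843 of protein-coding genes. The ACGTG form stood in 8 of 15 glycolytic enzymes, 7 of 14 other targets and 18.7% of all promoters. A match of these letters is a description and not a binding site. Of the 7 changed members with a sequence, 4 held a core, and of the 21 tested members that did not pass, 18 did. HK1, PFKM and PGAM1 were the 3 changed members with no match in this window.

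Across the 30 tested members, 7 were lower and 1 was higher in WTAP-labelled cells, that is 26.7% changed beside 20.4% of all genes tested (limma, adjusted p under 0.05). Counts were then made by role, and the difference between roles was not tested. Of 15 glycolytic enzymes 5 were lower and 0 higher (limma; 2 were higher at an unadjusted p under 0.05), where 9.91% of all genes were lower and 10.5% higher. The count of lower enzymes was 2 to 4 when any 1 array was left out, with 2 without mock array 6 or WTAP array 5 and 3 without mock array 4 or 5 or WTAP array 4. It was 2 after the change of neighbouring genes was subtracted. Of 12 other HIF targets 2 were lower and 1 higher, a share of 25.0% that is near the background (1 lower without mock array 6 or WTAP array 4 and after that subtraction), and of 3 HIF subunits 0 had changed (1 at an unadjusted p under 0.05). The median log2 fold change was -0.09 for the enzymes and 0.01 for the other targets, beside 0.00 for all genes. The enzymes that fell did so by less than 2-fold (1.37-fold to 1.56-fold), and the 3 changed HIF targets by 1.99-fold to 2.43-fold. At least 2-fold changes were found for 2 members, CA12 and VEGFA, where 4.03% of all genes reached that size. Without background correction neither reached it (log2 fold changes of 0.69 and -0.72), nor in the authors' processed table (0.67 and -0.71). All 3 values of one group lay on one side of the other group's in 9 of 15 glycolytic enzymes and in 4 of 12 other targets, beside 39.7% of all genes.

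**Figure D1:**
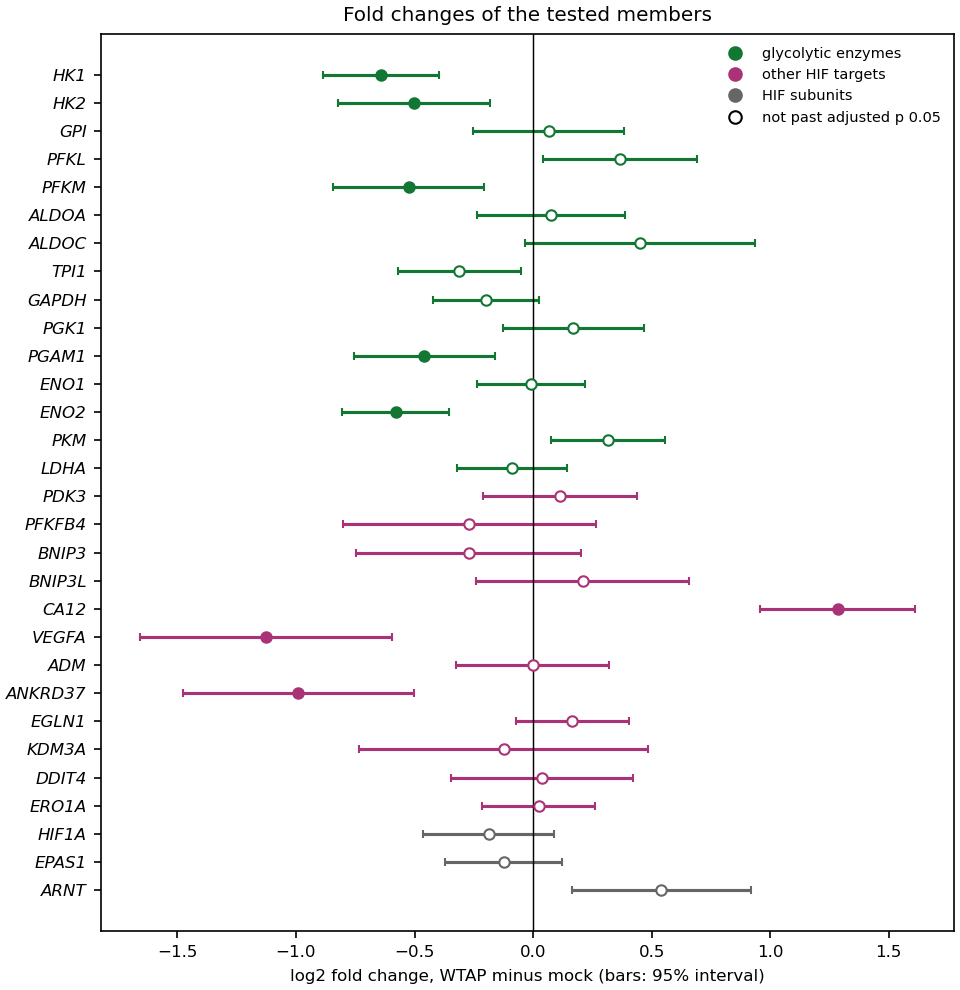
Log2 fold change (horizontal axis, WTAP minus mock) of the 30 tested members, in the order enzymes, other HIF targets and HIF subunits, with 95% intervals from limma and 3 arrays a group. Filled points passed the adjusted p of 0.05: 5 enzymes lie to the left of 0, VEGFA and ANKRD37 further left, and CA12 alone to the right.

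Glucose enters glycolysis through hexokinase, which phosphorylates it. The 2 hexokinase genes of the set fell. HK1, the widely expressed form, read 12.74, 12.81 and 12.77 on mock arrays 4, 5 and 6 and 12.22, 12.18 and 12.01 on the arrays labelled WTAP, on the normalised log2 scale. These groups did not overlap, with a log2 fold change of -0.64 ± 0.11 (SE, limma adjusted p = 0.00557). Of the 4 HK1 probes 1 passed the detection filter, so the result rests on that probe. The HK1 call was lost after the change of its chromosomal neighbours, described further on, was subtracted (log2 fold change -0.14, limma adjusted p = 0.494, over 16 alternatives 0.000139 to 0.494). HK2, the form that HIF induces in tumour cells, read 10.38, 10.12 and 10.56 in mock cells and 9.75, 9.82 and 9.98 in WTAP-labelled cells. The groups were separate by a small margin, and the log2 fold change was -0.50 ± 0.14 (SE, limma adjusted p = 0.0387). The HK2 call was lost without mock array 4 or 6 or WTAP array 4 or 5 (limma adjusted p = 0.0945, 0.106, 0.117 and 0.0962, over 16 alternatives 0.00889 to 0.132). It was also lost when its probes were averaged (0.132) or no dim probes were removed (0.0588). A second HK2 probe read 9.04 ± 0.04 and 8.86 ± 0.45 (SD, n = 3 each), with 1 low array (WTAP array 5, 8.34), and did not pass (log2 fold change -0.19, adjusted p = 0.579, limma over all probes). HKDC1, a further hexokinase outside the set and named after its values were seen, read 10.60 ± 0.16 and 10.14 ± 0.25 (SD, n = 3 each) with no overlap. It did not pass (log2 fold change -0.46, limma adjusted p = 0.0697). HKDC1 lies next to HK1 among the tested genes of chromosome 10, with a neighbour median of -0.46. After the neighbours were subtracted its log2 fold change was 0.04 (limma adjusted p = 0.901).

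The isomerase GPI, which turns glucose 6-phosphate into fructose 6-phosphate, had a log2 fold change of 0.07 and overlapping groups. Phosphofructokinase, the committed and most regulated step, is built from muscle, liver and platelet type subunits. Their genes gave different values, and the difference between them was not tested. PFKM, the muscle type, read 9.74, 9.73 and 10.06 in mock cells and 9.47, 9.16 and 9.32 in WTAP-labelled cells. It fell by 0.52 ± 0.14 (SE, limma adjusted p = 0.0321), with no overlap of the groups. That call was lost without mock array 4, 5 or 6 or WTAP array 5 or 6 (limma adjusted p = 0.0531, 0.0559, 0.0901, 0.0941 and 0.0600, over 16 alternatives 0.00829 to 0.0941). PFKL, the liver type, had a log2 fold change of 0.37 with an interval of 0.04 to 0.69, and did not pass after adjustment (adjusted p = 0.104, limma). PFKP, the platelet type and no member of the list, read 12.37 ± 0.10 in mock cells and 11.38 ± 0.01 in WTAP-labelled cells (SD, n = 3 each) and fell by 0.99 ± 0.10 (SE, limma adjusted p = 0.000863). The PFKP call was lost after subtraction of its chromosomal neighbours (log2 fold change -0.335, limma adjusted p = 0.0786).

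**Figure D2:**
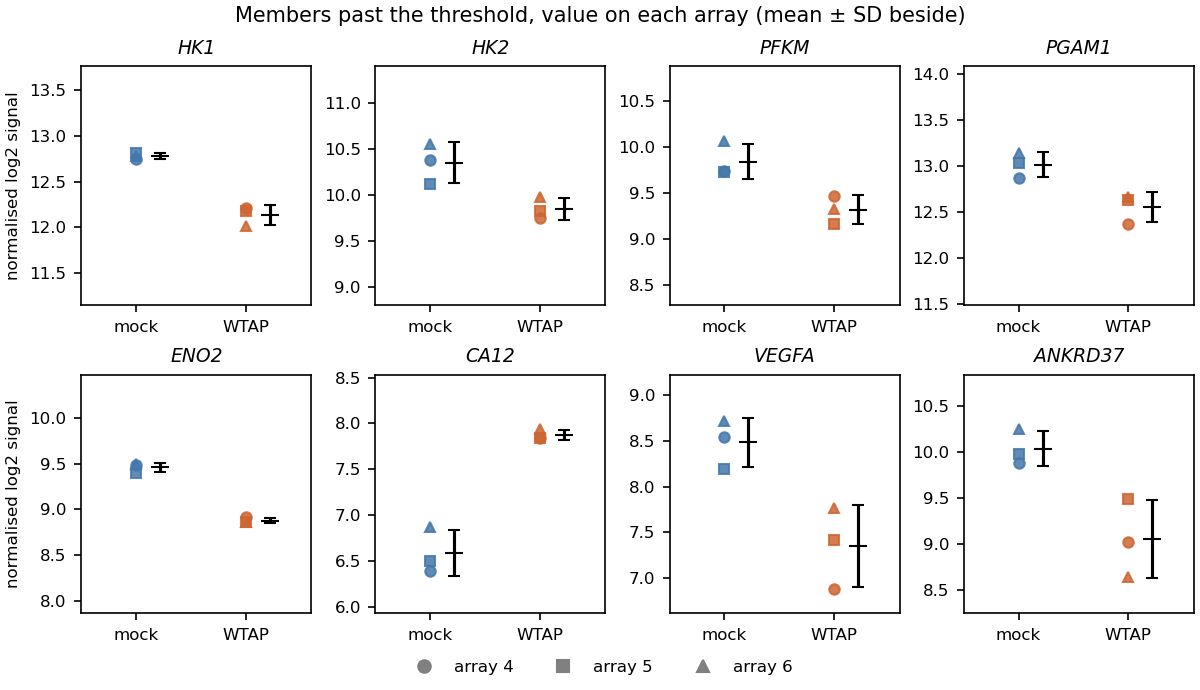
Normalised log2 signal (vertical axis, the same span of 2.6 log2 units in each panel) of the 8 members past the threshold on the 3 mock and 3 WTAP-labelled arrays, with the mean and SD beside the points. In none of the 8 genes do the groups overlap: 7 are lower and CA12 is higher on the arrays labelled WTAP, and the arrays of a group spread most in VEGFA and ANKRD37.

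In the middle of the pathway most enzymes did not pass. The aldolases, which split the hexose bisphosphate, had log2 fold changes of 0.08 (ALDOA, the main form) and 0.45 (ALDOC, the brain form). ALDOC passed with the array number as a block (adjusted p = 0.0433, limma, over 16 alternatives 0.0366 to 0.458) and without WTAP array 6 (0.0366), in each case as the 1 enzyme called higher. With that block 9 of 30 members had changed, beside 22.3% of all genes. TPI1, the triose phosphate isomerase, read 14.49 ± 0.12 and 14.18 ± 0.08 (SD, n = 3 each), groups that did not overlap, with a log2 fold change of -0.31 and an adjusted p of 0.0881 (limma). PGK1, the kinase that makes the first ATP of the pathway, had a log2 fold change of 0.17 with overlapping groups. PGAM1, the phosphoglycerate mutase, read 12.87, 13.04 and 13.15 in mock cells and 12.37, 12.64 and 12.67 in WTAP-labelled cells and fell by 0.46 ± 0.13 (SE, limma adjusted p = 0.0402). The 2 groups were separate, yet the PGAM1 call was lost without mock array 5 or 6 or WTAP array 4 or 5 (limma adjusted p = 0.103, 0.113, 0.123 and 0.0695, over 16 alternatives 0.00455 to 0.843), and after subtraction of its neighbours (0.843).

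GAPDH, the dehydrogenase often used as a loading standard, depended on the probe. Its brightest probe read 15.78, 15.82 and 15.75 in mock cells and 15.56, 15.60 and 15.59 in WTAP-labelled cells. These groups did not overlap, but the log2 fold change of -0.20 ± 0.10 did not pass (SE, limma adjusted p = 0.184). The second GAPDH probe read 14.42, 14.53 and 14.22 against 13.81, 13.94 and 13.76. It was clearly separated and fell by 0.56 ± 0.12 (SE, adjusted p = 0.0183, limma over all probes, of which 19.1% passed). Before normalization the brightest probe gave signals of 48301 to 57673, where the highest signal on an array was 63009 to 65269, and the second probe gave 13643 to 24656. Whether the scale is compressed near its top was not tested.

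At the end of the pathway the enolases gave different values, and the difference between them was not tested. ENO1, the ubiquitous enolase, had a log2 fold change of -0.01 with an interval of -0.24 to 0.22. Its signals before normalization were 53718 to 56319, near the top of the scale like those of the brightest GAPDH probe. ENO2, the neuronal enolase and a known HIF target, read 9.49, 9.40 and 9.49 in mock cells and 8.91, 8.86 and 8.86 in WTAP-labelled cells. The groups did not overlap, with a fall of 0.58 ± 0.10 (SE, limma adjusted p = 0.00613). The ENO2 call was lost after subtraction of its neighbours (log2 fold change -0.16, limma adjusted p = 0.386, over 16 alternatives 0.00154 to 0.386). PKM, the pyruvate kinase, pointed the other way on each of its 3 probes. Its brightest probe read 12.83, 12.83 and 12.69 in mock cells and 13.11, 13.15 and 13.03 in WTAP-labelled cells. No array of one group reached the other, but the log2 fold change of 0.32 ± 0.10 did not pass (SE, limma adjusted p = 0.0678). The dimmest PKM probe rose by 0.47 ± 0.11 (SE, adjusted p = 0.0250, limma over all probes), and the remaining one had a log2 fold change of 0.21 (adjusted p = 0.202, limma over all probes). Where each probe lies in the PKM transcripts, which splicing varies, was not analysed here.

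LDHA, the lactate dehydrogenase that regenerates NAD from pyruvate, read 15.49, 15.57 and 15.46 in mock cells and 15.37, 15.46 and 15.42 in WTAP-labelled cells. Its groups overlapped and the log2 fold change was -0.09, with an interval of -0.32 to 0.14 (limma adjusted p = 0.576). Before normalization this probe gave signals of 42706 to 49568, where the highest signal on an array was 63009 to 65269. The 2 further LDHA probes had log2 fold changes of -0.13 and -0.29, neither past the threshold. Over the 8 members with several detected probes, the call differed between probes in HK2, GAPDH and PKM and in none of the other 5. Of the 41 member probes 9 were lower and 2 higher, 26.8% beside 19.1% of all probes.

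**Figure D3:**
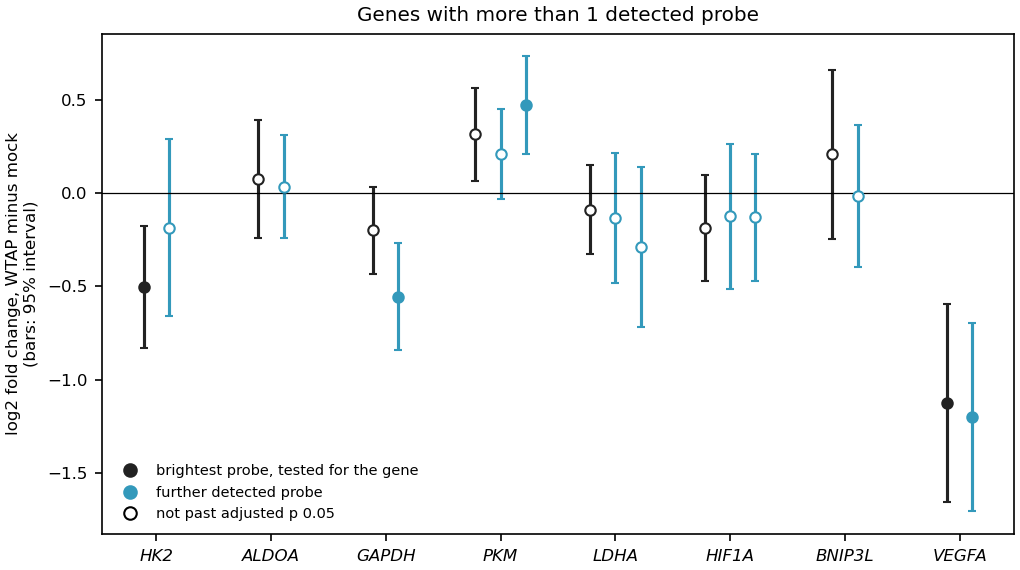
Log2 fold change (vertical axis, WTAP minus mock, with 95% intervals from limma) of each detected probe of the 8 members that had more than 1, brightest probe at the left of each gene. Filled points passed the adjusted p of 0.05 in the fit over all probes: both VEGFA probes, 1 of 2 HK2 and GAPDH probes, and 1 of 3 PKM probes.

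The 2 tested members that steer pyruvate and fructose phosphate did not pass. PDK3, a kinase that closes the pyruvate dehydrogenase complex, had a log2 fold change of 0.11 (adjusted p = 0.615), and PFKFB4, which sets the level of the phosphofructokinase activator fructose 2,6-bisphosphate, had -0.27 (adjusted p = 0.456, limma).

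Among HIF targets outside glycolysis, VEGFA and CA12 moved furthest, in opposite directions. VEGFA, the main angiogenic growth factor, read 8.54, 8.19 and 8.71 in mock cells and 6.88, 7.42 and 7.77 in WTAP-labelled cells. All arrays labelled WTAP lay below all mock arrays, and VEGFA was 2.18-fold lower (log2 fold change -1.13 ± 0.23, SE, limma adjusted p = 0.0124). Signals before normalization were 437 to 551 in mock cells and 250.2 to 333.5 in WTAP-labelled cells. A second VEGFA probe, detected on 2 of the 3 arrays labelled WTAP, fell by 1.20 ± 0.22 (SE, adjusted p = 0.00852, limma over all probes), and a further one was detected on no array.

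CA12, a membrane carbonic anhydrase that helps cells to export acid, read 6.39, 6.50 and 6.87 in mock cells and 7.84, 7.84 and 7.94 in WTAP-labelled cells. The arrays labelled WTAP lay close together and above every mock array, and CA12 was 2.43-fold higher (log2 fold change 1.28 ± 0.14, SE, limma adjusted p = 0.00101). Its signals before normalization were 205.2 to 249.4 and 357.9 to 363.1. The size of its fold depended on the background correction, with log2 fold changes of 1.04 at an offset of 50, 0.69 without correction and 0.67 in the authors' processed table. Its other probe was detected on no array. ANKRD37, an ankyrin repeat protein induced by HIF, read 9.88, 9.98 and 10.25 in mock cells and 9.02, 9.48 and 8.64 in WTAP-labelled cells. Its groups were separate though the arrays labelled WTAP spread widely, and it fell by 0.99 ± 0.21 (SE, limma adjusted p = 0.0145). The ANKRD37 call was lost without mock array 6 or WTAP array 4 (limma adjusted p = 0.0511 and 0.0525, over 16 alternatives 0.00122 to 0.0553). Of the 8 changed members, CA12 and VEGFA were the 2 whose call held under each of the 16 alternatives.

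The other tested targets had log2 fold changes between -0.27 and 0.21 and did not pass. They were the mitophagy receptors BNIP3 (-0.27) and BNIP3L (0.21), the vasodilator peptide ADM (0.00), the mTOR inhibitor DDIT4 (0.04), the histone demethylase KDM3A (-0.12), the endoplasmic reticulum oxidase ERO1A (0.02) and the HIF prolyl hydroxylase EGLN1 (0.17). Their precision differed. The 95% interval reached from -0.73 to 0.48 for KDM3A, whose 3 arrays labelled WTAP had an SD of 0.55, and from -0.21 to 0.26 for ERO1A. EGLN1 was the sole gene among them whose groups did not overlap (9.07 ± 0.03 and 9.23 ± 0.10, SD, n = 3 each, limma adjusted p = 0.303).

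The HIF subunits did not pass. HIF1A, the oxygen-regulated alpha subunit found in most cells, read 10.87, 10.89 and 10.57 in mock cells and 10.64, 10.56 and 10.57 in WTAP-labelled cells. Its groups overlapped, and its 3 probes had log2 fold changes of -0.19, -0.12 and -0.13 with adjusted p of 0.336 to 0.656 (limma over all probes). EPAS1, which encodes HIF-2 alpha, read 9.45, 9.55 and 9.49 against 9.39, 9.46 and 9.26 and overlapped as well (log2 fold change -0.12, limma adjusted p = 0.456). ARNT, the beta partner, read 6.68, 7.21 and 7.0 in mock cells and 7.73, 7.38 and 7.41 in WTAP-labelled cells. Its groups did not overlap, and the log2 fold change of 0.54 ± 0.16 missed the threshold narrowly (SE, limma adjusted p = 0.0512, over 16 alternatives 0.0380 to 0.504). It passed without mock array 5 (limma adjusted p = 0.0436), with an offset of 50 (0.0411) and under 2 other alternatives. After subtraction of its neighbours the ARNT log2 fold change was 0.19 (limma adjusted p = 0.504). The tested probe was dim, with signals before normalization of 224.9 to 345.9. The other ARNT probe was detected on 1 mock array and 1 array labelled WTAP.

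Many of these differences were shared with genes next to the member on its chromosome. For each tested member the 20 nearest tested genes were taken, in RefSeq order. Around HK1 their median log2 fold change was -0.49 with 11 of 20 lower, and around PGAM1 -0.45 with 9 lower. Both genes lie on chromosome 10, of whose 419 tested genes 46.5% were lower. Of the 4 tested members on this chromosome HK1 and PGAM1 fell, while BNIP3 and DDIT4, with neighbour medians of -0.42 and -0.38, had log2 fold changes of -0.27 and 0.04. A group of 3 enzymes lies close together on chromosome 12: GAPDH, TPI1 and ENO2 are the 33rd, 45th and 49th of its 608 tested genes. Around them the neighbour medians were -0.30, -0.42 and -0.41, with 6, 9 and 9 of 20 genes lower and 0 higher. TPI1 and ENO2 count among each other's neighbours.

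PKM and CA12 on chromosome 15 had neighbour medians of 0.26 and 0.28, each with 7 of 20 neighbours higher, and ARNT on chromosome 1 had 0.33. EGLN1, also on chromosome 1, lay among genes with a median of 0.42, of which 12 had risen. HK2 and PFKM lay among genes with medians of 0.03, and VEGFA among genes with -0.08. Across the 30 members the member's own log2 fold change and that of its neighbours had a Pearson correlation of 0.58 (Spearman 0.61), for the 15 enzymes 0.70 (0.57), beside 0.35 (0.35) over 11547 genes. These are descriptions across genes that share the same 6 arrays, and genes are not independent replicates.

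After the neighbours' median was subtracted on each array, 3 members were lower and 1 was higher (13.2% of all genes had changed in either direction). HK2, PFKM, VEGFA and CA12 passed (limma adjusted p = 0.0438, 0.0409, 0.0206 and 0.00536; over 16 alternatives up to 0.132, 0.0941, 0.0439 and 0.00699). HK1, PGAM1, ENO2 and ANKRD37 did not (limma adjusted p = 0.494, 0.843, 0.386 and 0.0553; over 16 alternatives from 0.000139, 0.00455, 0.00154 and 0.00122). Thus 2 of 15 enzymes were lower, beside 6.58% of all genes in the same setting, and the median of the enzymes went from -0.09 to 0.06. For ANKRD37 the fold change shrank from -0.99 to -0.80, and for HK1 from -0.64 to -0.14. TPI1 and GAPDH, which had not passed, changed sign, to 0.10 and 0.08. Whether the 2 lines differ in copy number at these places was not tested.

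**Figure D4:**
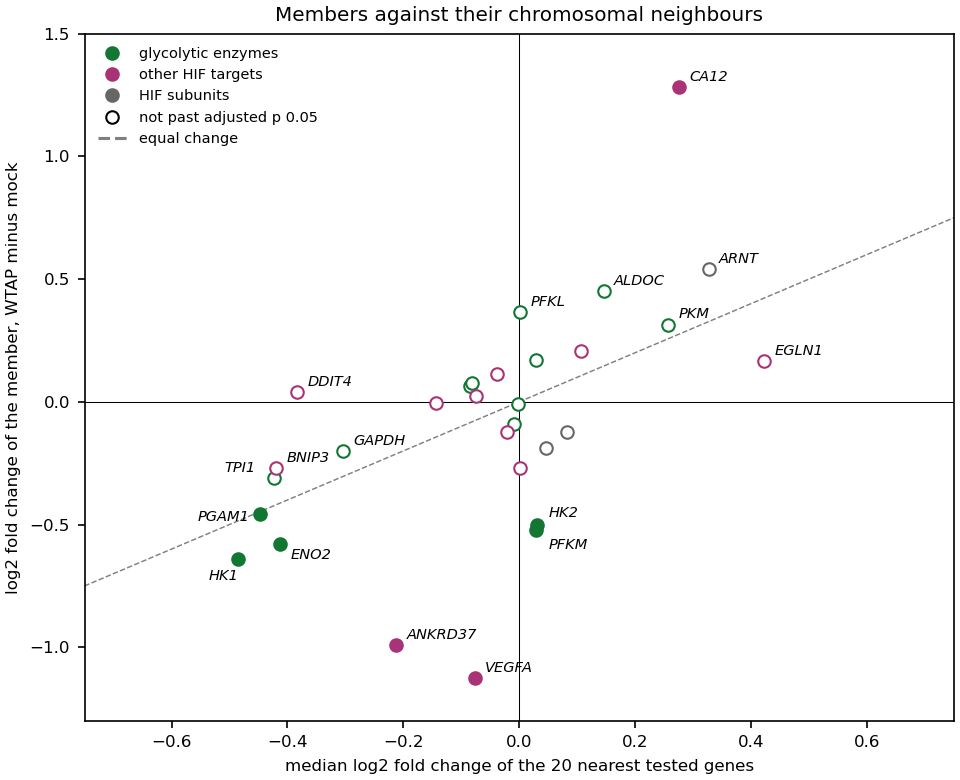
Log2 fold change of each of the 30 tested members (vertical axis, WTAP minus mock) against the median of its 20 nearest tested genes (horizontal axis), with a dashed line of equal change; filled points passed the adjusted p of 0.05. HK1, PGAM1 and ENO2 lie near the line with TPI1 and GAPDH, while HK2 and PFKM (neighbours at 0.03), VEGFA and CA12 lie away from it.

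Other genes of the pathway were counted from lists grouped by function. Their shares are read against the 9.91% of all genes that were lower and the 10.5% that were higher. Of 7 further glycolytic isoenzymes tested (16 listed) 2 were lower (28.6%) and 1 higher (14.3%): PFKP, ENO3, the muscle enolase (fell by 0.67), and ADPGK, an ADP-dependent glucokinase (rose by 0.38). PFKP lies on chromosome 10 with a neighbour median of -0.61, and its call was lost after the subtraction (limma adjusted p = 0.0786, over 16 alternatives 3.06e-06 to 0.0786). The ADPGK call was lost whichever of the 6 arrays was left out (limma adjusted p = 0.0561 to 0.0960, over 16 alternatives 0.0141 to 0.615). That of ENO3 was lost without mock array 5 or 6 or WTAP array 5 or 6 (0.0893, 0.0952, 0.0873 and 0.0626) with the array number as a block (0.0545) and under 2 other alternatives (limma, over 16 alternatives 0.00854 to 0.0952). Of 6 hexose and lactate carriers 1 changed (16.7%, beside 20.4% of all genes): SLC2A6, a lysosomal member of the glucose transporter family, fell by 0.98 ± 0.11 (SE, limma adjusted p = 0.00125). The main tumour glucose transporter SLC2A1, named after its values were seen, had a log2 fold change of 0.09.

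Of 12 genes that control fructose 2,6-bisphosphate and pyruvate dehydrogenase 1 rose and 1 fell, 16.7% beside 20.4% of all genes. PFKFB2, which makes fructose 2,6-bisphosphate, rose from 8.12 ± 0.19 to 9.17 ± 0.13 (SD, n = 3 each, limma adjusted p = 0.00180). TIGAR, a phosphatase that removes the same compound, fell by 0.53 (limma adjusted p = 0.0317) on chromosome 12, where its neighbour median was -0.22. The TIGAR call was lost after the subtraction (0.221) and without mock array 5 or 6 or WTAP array 4 or 5 (0.0891, 0.0929, 0.0991 and 0.0936, limma, over 16 alternatives 0.00628 to 0.221). Of 13 genes of gluconeogenesis and glycogen 1 rose and 2 fell, a share of 23.1% that is near the background. FBP1, the bisphosphatase that reverses the phosphofructokinase step, rose by 0.64 ± 0.13 (SE, limma adjusted p = 0.0112) and was lost after the subtraction (0.0831, over 16 alternatives 0.00132 to 0.0831). PCK2, the mitochondrial phosphoenolpyruvate carboxykinase, fell by 0.75 ± 0.16 (SE, limma adjusted p = 0.0129). GYS1, the muscle glycogen synthase, fell by 0.44, a call lost under 8 of 16 alternatives, among them those without mock array 4 or 5 or WTAP array 4 or 5 (0.0559, 0.0942, 0.0618 and 0.0799, limma, over 16 alternatives 0.0196 to 0.119). Of 6 pentose phosphate genes 1 fell (16.7%), PGD, by 0.42, and its call was lost without mock array 4, 5 or 6 or WTAP array 4 or 6 (0.0732, 0.0679, 0.0567, 0.0828 and 0.0515, limma, over 16 alternatives 0.00377 to 0.0828).

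Among 35 tested genes of a further list of hypoxia-induced transcripts 3 rose and 3 fell, 17.1% beside the 20.4% of all genes, and the median log2 fold change was -0.15. The largest were rises of IGFBP3, a secreted binder of insulin-like growth factors (1.42 ± 0.18), and LOX, the collagen cross-linking lysyl oxidase (1.34 ± 0.14), and a fall of PLOD2, a collagen lysyl hydroxylase, by 0.81 ± 0.11 (SE; limma adjusted p = 0.00163, 0.000866 and 0.00255). The count of falls was 5 under 8 alternatives. SLC2A1, SLC2A3, PFKFB3, GBE1 and PPP1R3C were also counted in the lists above, and CITED2 also in that of HIF control. None of these shared genes had changed. Of 16 tested genes that control HIF 1 rose and 2 fell, 18.8% and so also near the background. ARNT2, a second beta partner, read 6.77 ± 0.54 in mock cells and 8.34 ± 0.38 in WTAP-labelled cells (SD, n = 3 each) and rose by 1.57 ± 0.28 (SE, limma adjusted p = 0.00742). It lies on chromosome 15 among genes with a median of 0.33 and still passed after the subtraction (adjusted p = 0.0243, limma, over 16 alternatives 0.000444 to 0.0332).

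The 2 genes of HIF control that fell both lie on chromosome 10. CUL2, the scaffold of the ubiquitin ligase that VHL directs to HIF, fell by 0.92 ± 0.12 (SE, limma adjusted p = 0.00200) among neighbours with a median of -0.54, and HIF1AN, the asparagine hydroxylase of HIF, fell by 0.43 ± 0.11 (SE, limma adjusted p = 0.0284) among neighbours with -0.48. Neither passed after the subtraction (limma adjusted p = 0.158 and 0.747; over 16 alternatives from 4e-05 and 0.0128). The HIF1AN call was also lost without mock array 4, 5 or 6 or WTAP array 4 or 6 (0.0759, 0.0674, 0.0736, 0.0801 and 0.0595, limma). VHL itself, named after its values were seen, had a log2 fold change of 0.00 with an adjusted p of 0.998 (limma).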

How the data were processed

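Total RNA of 3 mock and 3 WTAP-labelled samples was hybridised to single-colour bead arrays. The authors deposited each probe's intensity on the linear scale, before any normalization between arrays, and beside it a detection p-value. The submitters' processing notes name BeadStudio 3.3, and what it did to the background is not stated there. The authors' second deposited table of intensity, from its values quantile normalized (column medians 196.8, Spearman correlation of 1 with the main values), served as an alternative; its background treatment is not stated. The median signal of an array was 191.4 to 202.8, and 15071 to 16307 probes were detected. The number of arrays limits the precision.

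Background correction by normexp with negative controls inferred from the detection p-values (offset 16), quantile normalization and log2 used neqc (limma 3.58.1, R 4.3.3); the 29285 probes in both tables were eligible for testing. Symbols came from the platform annotation, updated by gene identifier from RefSeq (27819 of 27988 named probes). The groups were compared by limma's moderated test (lmFit, eBayes) with Benjamini-Hochberg adjustment over 11586 genes, or 15830 probes where stated. Neighbours are the 20 nearest tested genes in GRCh38.p14 order, and their median deviation was subtracted on each array. The fit was tested on simulated data. Members, lists, the neighbour setting and the rule for named genes (every member; up to 3 changed genes of each other list with the largest change) were chosen with earlier results of these data known.

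The titles number both groups 4, 5 and 6. Deviations of same-numbered arrays from their group means correlated at 0.12, 0.21 and 0.23 across genes, other combinations at -0.20 to 0.02. The main fit did not use the numbers, so its p-values and calls take the arrays as unpaired. A fit with the numbers as a block was run as an alternative, with 2584 genes changed beside 2366 in the main fit.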

Additional observations from a re-analysis of the deposited data

How the results depend on the processing

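Alternatives were other background corrections (none, or an offset of 50), median scaling, the authors' processed table, 2 other filters on dim probes, probe means, a trended and robust variance, the replicate block, subtraction of neighbouring genes, and leaving out each array in turn. No member that had passed changed its direction under these 16; among the other named genes that had passed, HIF1AN was the 1 that did, with a log2 fold change of 0.071 after subtraction of neighbours. Without 1 array the genes changed numbered 1345 to 2245 (648 to 1115 higher, 657 to 1130 lower), members changed 3 to 6 lower and 1 to 2 higher, enzymes 2 to 4 lower and 0 to 1 higher, and other HIF targets 1 to 2 lower and 1 to 1 higher; the median of the enzymes was -0.116 to -0.058 and that of the other targets -0.035 to 0.085. After subtraction of neighbours 1528 genes changed (766 higher, 762 lower), 3 members, 2 enzymes and 1 other target were lower, and the medians were 0.060 and 0.104. The count of members higher was 2 with no background correction, with an offset of 50, in the authors' processed table, with detection on all 6 arrays, with the trended and robust variance and with the replicate block, and 3 with probe means. For enzymes this count was 1 with no background correction, in the processed table, with probe means, with the trended variance and with the replicate block. With no filter on dim probes 3 enzymes were lower, and with probe means the median of the enzymes was -0.170. The replicate block (2584 genes changed) added ALDOC among the members and removed ENO3 among the other named genes that had passed. No other call of these genes changed. The calls of HKDC1, SLC2A1 and VHL, which had not passed in the main fit, were not examined under this block. TPI1 and GAPDH passed downward, and PKM upward, with the trended variance (limma adjusted p = 0.0127, 0.0298 and 0.0157) and in the processed table (0.0368, 0.0329 and 0.0275), while their neighbours' subtraction gave 0.620, 0.656 and 0.766. A slide block was not run because the headers name no slide. The causes of these shifts were not tested. Signal over background limits BNIP3, which 2 arrays labelled WTAP did not detect.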
